A study of Mus musculus with 6 samples.

Results

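The pentose phosphate pathway branches off glycolysis at glucose 6-phosphate. Its oxidative arm strips carbon from glucose and makes NADPH, the reducing power that cells use to build fatty acids and sterols and to keep glutathione and thioredoxin reduced, and its non-oxidative arm interconverts sugar phosphates and supplies the ribose of nucleotides. Cytosolic and mitochondrial NADP-linked isocitrate dehydrogenases and malic enzyme are the other classical sources of NADPH, and in macrophages the same cofactor also feeds the NADPH oxidase that makes superoxide. The 10 genes described here were taken by symbol, as 1 row per gene, from the 24445 genes of the count table. They comprised *G6pdx*, *Pgls* and *Pgd* of the oxidative arm, *Rpia*, *Rpe*, *Tkt* and *Taldo1* of the non-oxidative arm, and *Idh1*, *Idh2* and *Me1*. All 10 were among the 12023 genes with enough counts to be tested.

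Bone marrow-derived macrophages (BMDMs) from female mice were compared between AclyM-KO animals, which carry loxP sites around exon 9 of *Acly* together with Cre recombinase driven by the myeloid *Lyz2* gene, and Acly fl/fl littermates (Ctrl, titled WT in the labels), which carry the same floxed alleles. *Acly* encodes ATP-citrate lyase, which cleaves cytosolic citrate to acetyl-CoA. All cells were grown for 7 days in L929-conditioned medium and exposed for 24 h to 100 U/mL IL-4, the cytokine that drives alternative activation, and 3 poly(A) RNA libraries were made per genotype. The floxed mice were C57Bl/6J, and the study crossed them with *Lyz2*-Cre mice, whose strain its methods do not name. The age of the mice was not given in the sources used here, and untreated cells were not analysed here. The study describes the 3 libraries of a group as biological replicates in its methods but as technical ones, from 3 mice pooled, in a legend. The tests therefore compare these libraries, and their p-values may measure technical spread. Per library, 12151975 to 15587283 counts fell on the rows used.

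*Acly* itself had 332.2, 321.0 and 349.6 CPM (read counts scaled for library size) in the Ctrl libraries and 146.0, 133.7 and 135.5 CPM in the AclyM-KO libraries. The AclyM-KO level was therefore 41.4% of Ctrl, so a part of the transcript remained in every AclyM-KO library. Macrophage markers summed to between 6946 and 7561 CPM in the 6 libraries and overlapped between the genotypes, although 3 of the 6 genes were called lower (*Csf1r*, *Itgam*, *Mertk*) and 1 higher (*Adgre1*). The 5 genes of the IL-4 response summed to 9278 to 9735 CPM in Ctrl and 7976 to 8452 CPM in AclyM-KO, with 2 of 5 called lower (*Arg1* and *Mgl2*). The 8 neutrophil markers summed to 12.1 to 13.3 CPM in Ctrl and 18.6 to 19.1 CPM in AclyM-KO, with *S100a8* and *S100a9* called higher and *Ly6g* and *Elane* at no more than 3 counts in any library. Markers of dendritic, B, T, mast and fibroblast cells stayed at or below 4.09 CPM in sum and overlapped between genotypes, and the 3 erythroid genes were at 0. The 8 cell cycle genes summed to 438.9 to 537.6 CPM in Ctrl and 430.3 to 459.7 CPM in AclyM-KO. The part of these shifts in the results that follow was not tested, and in bulk RNA fewer cells of a type and less RNA per cell cannot be told apart.

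Windows from 250 bases before to 50 bases after the RefSeq start site (GRCm38.p6) were searched on both strands for TGACNNNGC, the core of the antioxidant response element that binds Nrf2 and Bach1. The windows of the 3 genes to which the results return are shown 5′ to 3′ on the gene's own strand, with matches to that core in capitals.
*G6pdx*, chrX:74428831-74429130, minus strand: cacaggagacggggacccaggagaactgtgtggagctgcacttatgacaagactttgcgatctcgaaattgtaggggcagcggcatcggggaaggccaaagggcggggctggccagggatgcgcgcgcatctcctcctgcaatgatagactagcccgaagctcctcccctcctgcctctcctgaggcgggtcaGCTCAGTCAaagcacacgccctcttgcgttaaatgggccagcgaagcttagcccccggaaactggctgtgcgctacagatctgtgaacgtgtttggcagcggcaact
*Pgd*, chr4:149166656-149166955, minus strand: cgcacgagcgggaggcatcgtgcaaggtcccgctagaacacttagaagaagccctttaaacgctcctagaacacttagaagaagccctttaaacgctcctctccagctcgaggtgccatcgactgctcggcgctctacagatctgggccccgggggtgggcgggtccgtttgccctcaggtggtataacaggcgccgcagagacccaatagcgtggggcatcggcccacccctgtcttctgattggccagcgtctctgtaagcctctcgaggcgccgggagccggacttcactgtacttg
*Me1*, chr9:86695865-86696164, minus strand: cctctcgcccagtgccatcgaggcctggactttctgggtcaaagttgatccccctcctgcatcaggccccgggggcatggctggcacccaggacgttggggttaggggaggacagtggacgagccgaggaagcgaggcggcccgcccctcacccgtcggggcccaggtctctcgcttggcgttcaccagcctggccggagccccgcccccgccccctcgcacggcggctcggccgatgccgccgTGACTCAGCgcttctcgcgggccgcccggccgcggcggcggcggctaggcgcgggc
The *G6pdx* window held the core on the opposite strand, written GCTCAGTCA on the gene's strand, at positions -57 to -49 from the start site. This *G6pdx* site lay inside an exon of the counted transcript. The *Me1* window held TGACTCAGC across its start site, from position -6 to 3. The annotated starts of these genes vary, the GENCODE transcript counted for *G6pdx* beginning 314 bases upstream of the RefSeq start and that of *Me1* 8637 bases downstream of the one shown, at a second RefSeq start, although both *Me1* rows had identical counts. The *Pgd* window shown held no match, while a further RefSeq start of *Pgd*, 623 bases downstream, had TGACATTGC at positions 4 to 12, inside an exon of the counted transcript. Over all 13 RefSeq windows of the 10 genes, 3 held the core, against 12.4% of all 32851 promoter windows. The sterol response element TCACNCCAC was in none of the 13 windows and in 1.24% of all windows. The E-box CACGTG was in none of the 13 and in 7.15% of all. The hypoxia response element core ACGTG, which any E-box also contains, was in 2 of the 13, those of *G6pdx* and of the downstream start of *Me1*, and in 19.6% of all. A match is a string of letters and does not show a bound factor.

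In AclyM-KO macrophages 2 of the 10 genes passed the edgeR test across all genes (adjusted p under 0.05), both higher: *Pgd* at 125.3% and *Me1* at 167.5% of the mean Ctrl level. None was lower, by this test or by DESeq2 or limma-voom, and none was lower at an unadjusted edgeR p under 0.05, where 4 were higher. The share of all genes passing that unadjusted threshold was not counted. *G6pdx*, with the highest p of the 4, ranked only 3986 by p among the 12023 genes tested. At the adjusted threshold, 12.4% of all genes tested were called higher and 12.6% lower, so 2 of 10 lay near what the whole transcriptome showed. With the further limit of a log2 fold change beyond 0.58, *Me1* alone remained, against 2.98% of all genes higher and 2.57% lower. The CPM of the 2 genotypes did not overlap, with AclyM-KO higher, for 5 genes (*G6pdx*, *Pgls*, *Pgd*, *Tkt* and *Me1*), against 20.5% of all genes. No gene was without overlap in the other direction, which 19.8% of all genes were. The 10 log2 fold changes ran from -0.03 to 0.74 with a median of 0.10, and 8 were above 0, whereas the median over all genes tested was 0.0014.

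**Figure D1:**
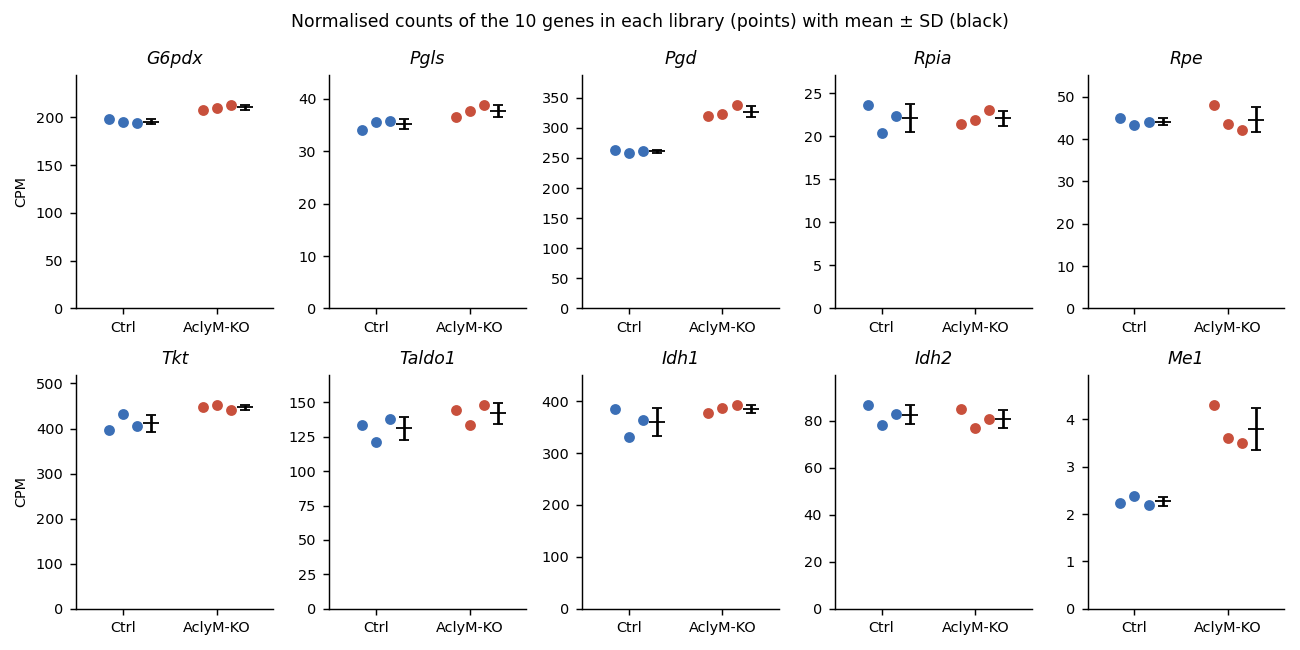
Normalised counts (CPM, linear axes from 0) of the 10 genes in the 3 Ctrl (blue) and 3 AclyM-KO (red) libraries, with the mean and SD of each group in black. *Pgd* and *Me1* showed the widest gaps between the groups, and the points of *Rpia*, *Rpe*, *Taldo1*, *Idh1* and *Idh2* overlapped.

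*G6pdx* encodes glucose-6-phosphate dehydrogenase, which commits glucose 6-phosphate to the pathway and makes its first NADPH. The gene is on chromosome X (74409483 to 74429194, minus strand, 13 exons). Its level was 198.2, 195.2 and 193.8 CPM in Ctrl and 208.3, 210.4 and 213.0 CPM in AclyM-KO. Every AclyM-KO library stood above every Ctrl library, but the step was small. The means were 195.7 ± 2.29 and 210.6 ± 2.39 CPM (SD, n = 3), a log2 fold change of 0.11 (SE 0.046, 95% interval 0.0082 to 0.203) that missed the threshold (edgeR adjusted p = 0.107). Of its exonic bases, 4.83% lay under exons of *Ikbkg* on the other strand. The autosomal copy *G6pd2* had 0 to 3 counts per library, and reads common to the copies cannot be assigned with certainty.

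*Pgls*, for 6-phosphogluconolactonase, which opens the lactone that *G6pdx* leaves, lies on chromosome 8 (71592176 to 71601092, plus strand). It had 34.12, 35.58 and 35.82 CPM in Ctrl and 36.57, 37.57 and 38.79 CPM in AclyM-KO. The groups again touched nowhere, with the lowest AclyM-KO library just above the highest Ctrl library. The log2 fold change was 0.10 (SE 0.065, 95% interval -0.039 to 0.237, edgeR adjusted p = 0.295).

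*Pgd* had the lowest adjusted p of the 10 genes. It encodes 6-phosphogluconate dehydrogenase, which makes the second NADPH of the oxidative arm and releases carbon dioxide and ribulose 5-phosphate, and lies on chromosome 4 (149149991 to 149166771, minus strand, 13 exons). The libraries held 3892, 3157 and 3449 counts in Ctrl and 4689, 5021 and 4930 counts in AclyM-KO. As normalised counts these were 263.0, 258.2 and 261.8 CPM against 319.9, 323.0 and 337.8 CPM. The Ctrl libraries lay close together, and the lowest AclyM-KO library stood far above them. The mean rose from 261.0 ± 2.47 to 326.9 ± 9.59 CPM (SD, n = 3), a log2 fold change of 0.32 (SE 0.046, 95% interval 0.228 to 0.422, edgeR adjusted p = 1.02e-04). With any 1 library left out, the log2 fold change stayed between 0.30 and 0.34 and was called in 6 of 6 fits. For 3 libraries against 3, an exact two-sided permutation test of the CPM cannot go below p = 0.10, and *Pgd* was at that floor, as were all genes whose groups did not overlap.

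The ratio of *Pgd* to *G6pdx* per transcript length was examined after the values had been seen, as a description. It was 1.586, 1.582 and 1.615 in Ctrl and 1.836, 1.835 and 1.896 in AclyM-KO, without overlap. Summed per length over its 3 genes, the oxidative arm was at 475.4 ± 2.39 in Ctrl and 547.7 ± 11.1 in AclyM-KO on the TPM scale, on which the levels of all genes of a library have a fixed sum.

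*Tkt* encodes transketolase, which moves 2-carbon units between sugar phosphates and links the pathway back to glycolysis, and lies on chromosome 14 (30548359 to 30574720, plus strand). Its level was 396.6, 432.2 and 405.1 CPM in Ctrl and 447.7, 451.5 and 441.9 CPM in AclyM-KO. The AclyM-KO libraries were close together and all above Ctrl, where replicate 2 was the highest. The log2 fold change of 0.12 (SE 0.046, 95% interval 0.022 to 0.219) did not pass (edgeR adjusted p = 0.0686). It did without Ctrl replicate 2, at 0.15 (edgeR adjusted p = 0.00804), and with limma-voom on all libraries (limma adjusted p = 0.041).

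*Taldo1*, for transaldolase, which carries out the 3-carbon transfers of the same arm, lies on chromosome 7 (141392199 to 141402968, plus strand). Its 3 Ctrl libraries had 133.7, 121.4 and 137.9 CPM and its AclyM-KO libraries 144.6, 133.6 and 147.8 CPM. One AclyM-KO library fell within the Ctrl range. The log2 fold change of 0.12 (SE 0.058, 95% interval -0.0087 to 0.240) was not called (edgeR adjusted p = 0.167), and was 0.060 without Ctrl replicate 2. Per length the ratio of *Tkt* to *Taldo1* had the same mean of 1.203 in both genotypes, with an SD of 0.134 in Ctrl and 0.0766 in AclyM-KO.

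For the enzymes that handle ribulose 5-phosphate no difference was detectable at this depth. *Rpia*, for ribose-5-phosphate isomerase (chromosome 6, 70765720 to 70792232, minus strand), had 23.65, 20.45 and 22.39 CPM in Ctrl and 21.42, 21.87 and 23.09 CPM in AclyM-KO. Its log2 fold change was -0.0055 (SE 0.084, 95% interval -0.184 to 0.173, edgeR adjusted p = 0.971). The AclyM-KO libraries of *Rpia* lay inside the Ctrl range. *Rpe*, for ribulose-5-phosphate 3-epimerase (chromosome 1, 66700831 to 66719805, plus strand), had 44.93, 43.43 and 44.02 CPM in Ctrl and 48.03, 43.56 and 42.21 CPM in AclyM-KO. The AclyM-KO libraries of *Rpe* spread around the Ctrl libraries on both sides. Its log2 fold change was 0.015 (SE 0.065, 95% interval -0.123 to 0.152, edgeR adjusted p = 0.893), and 20.6% of its exonic bases lay under exons of *Kansl1l* on the other strand. The sum of the 4 non-oxidative genes per length was 555.9 ± 9.19 in Ctrl and 590.6 ± 10.5 in AclyM-KO on the TPM scale.

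**Figure D2:**
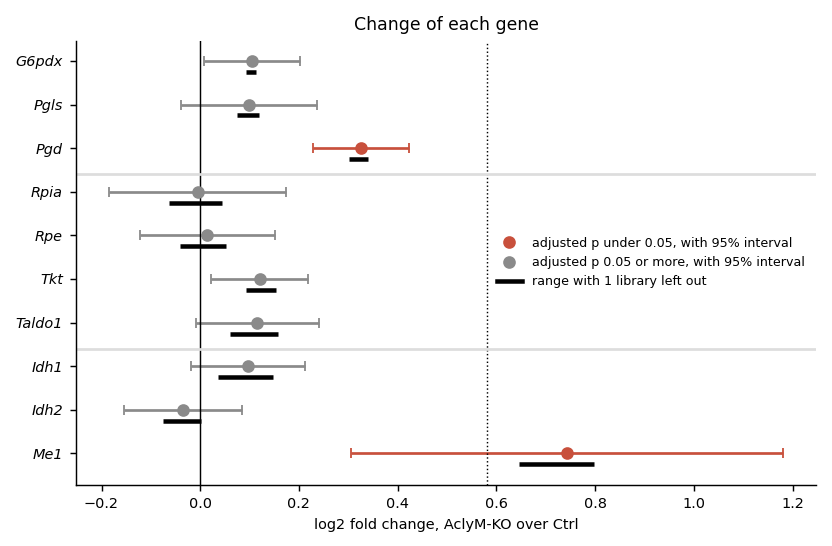
Log2 fold change of each gene in AclyM-KO over Ctrl with its 95% interval (edgeR), red where the adjusted p was under 0.05. Black bars give the range when 1 library was left out, the dotted line marks 0.58, and grey lines part the oxidative arm, the non-oxidative arm and the other dehydrogenases. The intervals of *Pgd*, *Me1*, *G6pdx* and *Tkt* lay above 0, and those of the other 6 genes included it.

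*Me1* encodes cytosolic malic enzyme, which turns malate into pyruvate and makes NADPH, and lies on chromosome 9 (86581371 to 86695953, minus strand). It was the scarcest of the 10, with 33, 29 and 29 counts in Ctrl and 63, 56 and 51 counts in AclyM-KO. As normalised counts these were 2.23, 2.37 and 2.20 CPM against 4.30, 3.60 and 3.50 CPM. The groups were well apart, with AclyM-KO replicate 1 the highest. The mean rose from 2.27 ± 0.092 to 3.799 ± 0.436 CPM (SD, n = 3), a log2 fold change of 0.74 (SE 0.206, 95% interval 0.306 to 1.18, edgeR adjusted p = 0.0154). At this depth the fold is known only to between 23.6% and 126.6% above Ctrl. Without AclyM-KO replicate 1 the log2 fold change was 0.65 and the call was lost (edgeR adjusted p = 0.0729). It held in the other 5 fits that left out 1 library.

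*Idh1*, for the cytosolic and peroxisomal NADP-dependent isocitrate dehydrogenase, lies on chromosome 1 (65158616 to 65186500, minus strand). It had 385.7, 331.2 and 362.9 CPM in Ctrl and 377.1, 385.9 and 391.8 CPM in AclyM-KO. The Ctrl libraries were spread more widely than the AclyM-KO libraries, and the ranges overlapped. The log2 fold change was 0.10 (SE 0.054, 95% interval -0.018 to 0.212, edgeR adjusted p = 0.212). It was 0.036 without Ctrl replicate 2, the lowest library, and 0.147 without Ctrl replicate 1, the highest of Ctrl.

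*Idh2*, its mitochondrial counterpart on chromosome 7 (80094846 to 80115392, minus strand), had 86.48, 78.19 and 82.95 CPM in Ctrl and 84.73, 76.75 and 80.59 CPM in AclyM-KO. The ranges covered each other almost wholly. The log2 fold change was -0.034 (SE 0.056, 95% interval -0.154 to 0.086, edgeR adjusted p = 0.705). None of the 3 subunits of the NAD-linked isocitrate dehydrogenase of the citric acid cycle was called. *Idh3a* had a log2 fold change of -0.20 (SE 0.074, edgeR adjusted p = 0.0629) and passed in 4 alternatives (library totals only, no filter on low counts, and without Ctrl or AclyM-KO replicate 2), and *Idh3b* and *Idh3g* each had a log2 fold change of 0.03. The mitochondrial NAD-linked malic enzyme *Me2* had a log2 fold change of 0.10 (SE 0.072, edgeR adjusted p = 0.339), and *Me3* had at most 3 counts in any library.

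Levels can be set against each other between genes only per transcript length, on the TPM scale. In Ctrl the order was *Idh1* (333.7 ± 24.4), *Tkt* (270.2 ± 12.8), *Pgd* (249.1 ± 2.20), *Taldo1* (225.6 ± 14.97), *G6pdx* (156.2 ± 1.01), *Idh2* (100.1 ± 4.76), *Pgls* (70.1 ± 2.19), *Rpe* (34.4 ± 0.475), *Rpia* (25.65 ± 1.795) and *Me1* (1.46 ± 0.059), each as mean ± SD of 3 libraries. No neighbours in this order overlapped between their libraries. The AclyM-KO libraries gave the same order with 1 exchange, *Pgd* (307.8 ± 7.97) then standing above *Tkt* (289.7 ± 3.96), again without overlap. Of the 2 called genes, *Pgd* was the third in Ctrl and *Me1* the last. The *Idh1* level was on average 229.5 ± 25.1 times that of *Me1* in Ctrl and 147.5 ± 18.6 times in AclyM-KO, so *Me1* remained a minor transcript. These levels depend on the transcript chosen for the length, which was 1 of 2 rows with identical counts for *Pgls* and *Me1*, 1 of 4 for *Rpe* and 1 of 2 rows with unlike counts for *Idh1*.

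**Figure D3:**
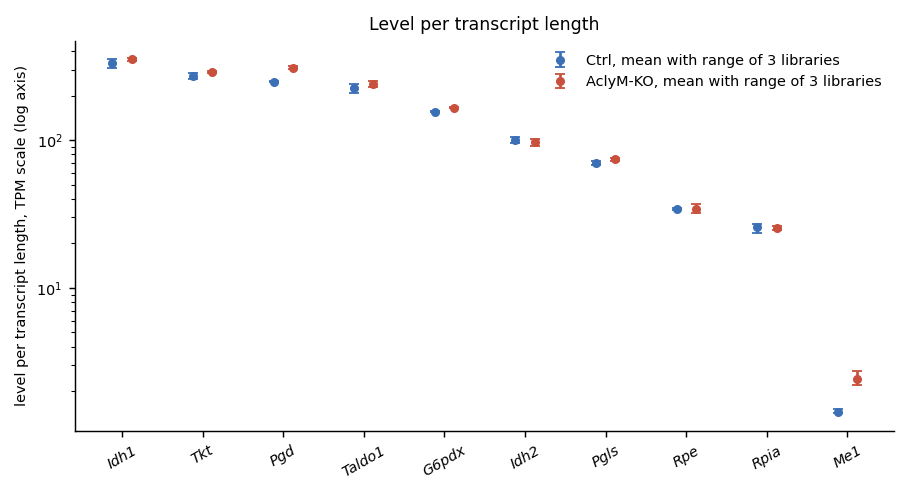
Level per transcript length (TPM scale, log axis) of the 10 genes, ordered by Ctrl, as mean and range of the 3 Ctrl (blue) and 3 AclyM-KO (red) libraries. Between *Idh1* at 333.7 and *Rpia* at 25.7 the Ctrl levels fell in steps, *Me1* lay far below at 1.46, and *Pgd* passed *Tkt* in AclyM-KO.

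Of 13 other enzymes of the pathway and of ribose phosphate metabolism, 10 were tested and none was called by edgeR, DESeq2 or limma-voom. Of these 10, 0 had an unadjusted edgeR p under 0.05, and their median log2 fold change was -0.08. Over all genes tested, 12.4% were called higher and 12.6% lower, the background for the counts of this and the following lists. *H6pd*, the hexose-6-phosphate dehydrogenase of the endoplasmic reticulum, had 46.9 ± 2.51 CPM in Ctrl and 45.3 ± 4.04 CPM in AclyM-KO (edgeR adjusted p = 0.660). *Shpk*, the sedoheptulokinase that withdraws a substrate of transaldolase, had a log2 fold change of -0.17 (SE 0.138, edgeR adjusted p = 0.410), which was -0.30 without Ctrl replicate 2 and -0.055 without Ctrl replicate 3. Without Ctrl replicate 2, 1 gene of this list was called lower. The transketolase relatives *Tktl1* and *Tktl2* had at most 3 counts in any library, *Tktl2* none. The ribose 5-phosphate made by the pathway is activated to PRPP for nucleotide and NAD synthesis. Of 6 tested users of PRPP, *Hprt*, which salvages hypoxanthine and guanine, rose by 0.25 on the log2 scale (SE 0.051, edgeR adjusted p = 0.00225), and *Aprt*, which salvages adenine, fell by 0.30 (SE 0.053, edgeR adjusted p = 6.74e-04).

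A list of 12 further genes around NADPH supply held dehydrogenases, NAD kinases, the transhydrogenase and folate enzymes, among them *Mthfd1l*, a formyl-tetrahydrofolate synthetase that itself makes no NADPH. Of these 11 were tested, with 3 higher, 2 lower and a median log2 fold change of 0.11. *Glud1*, the mitochondrial glutamate dehydrogenase, rose from 287.0 ± 4.13 to 348.9 ± 7.02 CPM. *Nadk*, the kinase that makes NADP from NAD, rose from 203.2 ± 8.82 to 235.9 ± 4.33 CPM. Of the mitochondrial folate enzymes, *Mthfd2* rose by 0.27 and *Mthfd1l* fell by 0.36 on the log2 scale. *Nnt*, the transhydrogenase of the inner mitochondrial membrane, had a log2 fold change of -0.27 (SE 0.079, edgeR adjusted p = 0.0189). Its call held in only 2 of 6 fits with 1 library left out, and was lost without Ctrl replicate 1 and without each AclyM-KO library in turn (log2 fold changes of -0.24, -0.28, -0.27 and -0.28). Read counts do not show whether a working transhydrogenase was made. Without AclyM-KO replicate 1, *Mthfd2* (0.25, edgeR adjusted p = 0.0525) and *Mthfd1l* (-0.32, edgeR adjusted p = 0.0522) also missed the threshold, which left no gene of the list called lower in that edgeR fit.

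The consumers of NADPH were counted by class. Among 16 NADPH-using enzymes, mostly of sterol and fatty acid synthesis, 14 rose and none fell by edgeR, DESeq2 or limma-voom or at an unadjusted edgeR p under 0.05, 8 of the rises beyond the limit, with a median log2 fold change of 0.59. *Fasn*, the fatty acid synthase, rose from 384.2 ± 23.5 to 826.0 ± 36.1 CPM, a log2 fold change of 1.10 (SE 0.051, edgeR adjusted p = 1.59e-09). *Cyp51*, an enzyme of cholesterol synthesis, rose by 0.82 on the log2 scale. Among the 14, *Hsd17b12* and *Kdsr* were named after their values were seen. With 1 library left out, their calls held in only 3 and 2 of 6 fits. The CPM of *Kdsr* overlapped between the genotypes. The 2 not called, chosen for mention after their values were seen, were the cytochrome P450 reductase *Por* (0.06) and the enoyl-CoA reductase *Tecr* (0.06). For comparison, the *Pgd* log2 fold change of 0.32 lay below that median and the *Me1* value of 0.74 above it, though the 95% interval of *Me1* (0.306 to 1.18) included the median.

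Of 12 other NADPH-dependent reductases, 5 rose and 2 fell, with a median log2 fold change of 0.29. *Txnrd1*, the cytosolic thioredoxin reductase, had 107.0, 109.2 and 112.0 CPM in Ctrl and 145.3, 147.7 and 153.6 CPM in AclyM-KO, a log2 fold change of 0.44 (edgeR adjusted p = 9.64e-06). The aldo-keto reductases *Akr1a1* (0.28) and *Akr1b3* (0.46) rose as well, as did the quinone reductase *Nqo1* from 1.30 ± 0.076 to 3.01 ± 0.422 CPM. The fifth that rose, glutathione reductase (*Gsr*, 0.31), and the 2 that fell, *Cbr1* (-0.24) and *Akr1b8* (-0.49), were named after their values were seen. The *Cbr1* call held in 1 of 6 fits with a library left out, that without Ctrl replicate 3 (highest edgeR adjusted p of the 6, 0.120 for *Cbr1*), so that 1 reductase was lower in the other 5, as it was with DESeq2. Of the 8 NADPH oxidase genes, 1 was called higher and 2 lower, and among them the small GTPases *Rac1* rose by 0.23 and *Rac2* fell by 0.28 on the log2 scale. Without AclyM-KO replicate 1 or replicate 2, 1 gene of this list was called lower. The catalytic subunit *Cybb* was not called, at -0.11 (edgeR adjusted p = 0.0834), and was likewise named after its value was seen.

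Glucose 6-phosphate, made by hexokinases, enters either the pentose phosphate pathway or glycolysis. Of 11 genes from glucose uptake to triose phosphate, 9 fell and 1 rose, 5 of the falls beyond the limit, with a median log2 fold change of -0.53. *Gpi1*, glucose-6-phosphate isomerase, which competes with *G6pdx* for the same substrate, fell from 398.5 ± 20.4 to 249.8 ± 2.14 CPM (log2 fold change -0.67, SE 0.049, edgeR adjusted p = 1.78e-07). *Hk2*, an inducible hexokinase, fell by 1.02, *Tpi1*, triose-phosphate isomerase, by 0.96 and *Aldoa*, aldolase A, by 0.46 on the log2 scale. The gene that rose was the hexokinase *Hk3* (757.5 ± 30.3 CPM in Ctrl and 841.7 ± 7.45 CPM in AclyM-KO, log2 fold change 0.15), named after its value was seen and not called without AclyM-KO replicate 1 or replicate 2. *Gapdh* was among the 9 and among the 5 beyond the limit. Its row held 5.93 CPM in Ctrl and the gene has near-identical copies, so this value is uncertain. The *Gapdh* call held in 3 of 6 fits with 1 library left out. Those of *Hk1* and *Pfkp*, also named after their values were seen, each held in 4. The ratio of *G6pdx* to *Gpi1* per length was chosen after the values were seen. It was 0.571, 0.508 and 0.527 in Ctrl and 0.916, 0.912 and 0.923 in AclyM-KO, without overlap. That followed from the 2 genes, which each lacked overlap in opposite directions. The larger change was that of *Gpi1*, while *G6pdx* (log2 fold change 0.11) was not called.

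Substrates for *Idh1*, *Idh2* and *Me1* come from the citrate and malate pools next to *Acly*. Of 13 genes there, *Slc25a1*, the mitochondrial citrate carrier, rose from 91.1 ± 1.68 to 109.7 ± 0.962 CPM (log2 fold change 0.27, edgeR adjusted p = 7.34e-04). *Mdh2*, mitochondrial malate dehydrogenase, rose by 0.18 and *Pcx*, pyruvate carboxylase, by 0.55 on the log2 scale. *Acly* was the 1 gene lower, and the other 9 were not called. The *Mdh2* call was lost without AclyM-KO replicate 2 or 3 (edgeR adjusted p = 0.0630 and 0.0641). Without Ctrl or AclyM-KO replicate 2, where *Idh3a* passed, 2 genes of this list were lower.

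Among 11 tested regulators of these genes and enzymes, 2 were higher and 1 was lower. *Bach1*, the repressor at antioxidant response elements, rose from 177.4 ± 13.3 to 230.6 ± 10.7 CPM (log2 fold change 0.38, edgeR adjusted p = 2.44e-04). *Nfe2l2*, which encodes the activator Nrf2, had 260.1 ± 12.1 CPM in Ctrl and 255.6 ± 4.25 CPM in AclyM-KO (edgeR adjusted p = 0.753). *Srebf2*, the regulator of sterol synthesis, rose by 0.21 on the log2 scale (edgeR adjusted p = 0.00271). *Mlxip*, a glucose-sensing factor, fell by 0.23 (edgeR adjusted p = 0.00999), and missed the threshold without AclyM-KO replicate 2 (edgeR adjusted p = 0.0545). Without Ctrl replicate 2, 2 regulators were lower. The 3 genes whose windows are shown above were those of the 10 with the antioxidant response element core at any RefSeq start. In the windows shown, *Me1* and *G6pdx* held the core and *Pgd* did not, and of these 3 *Pgd* and *Me1* were called.

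**Figure D4:**
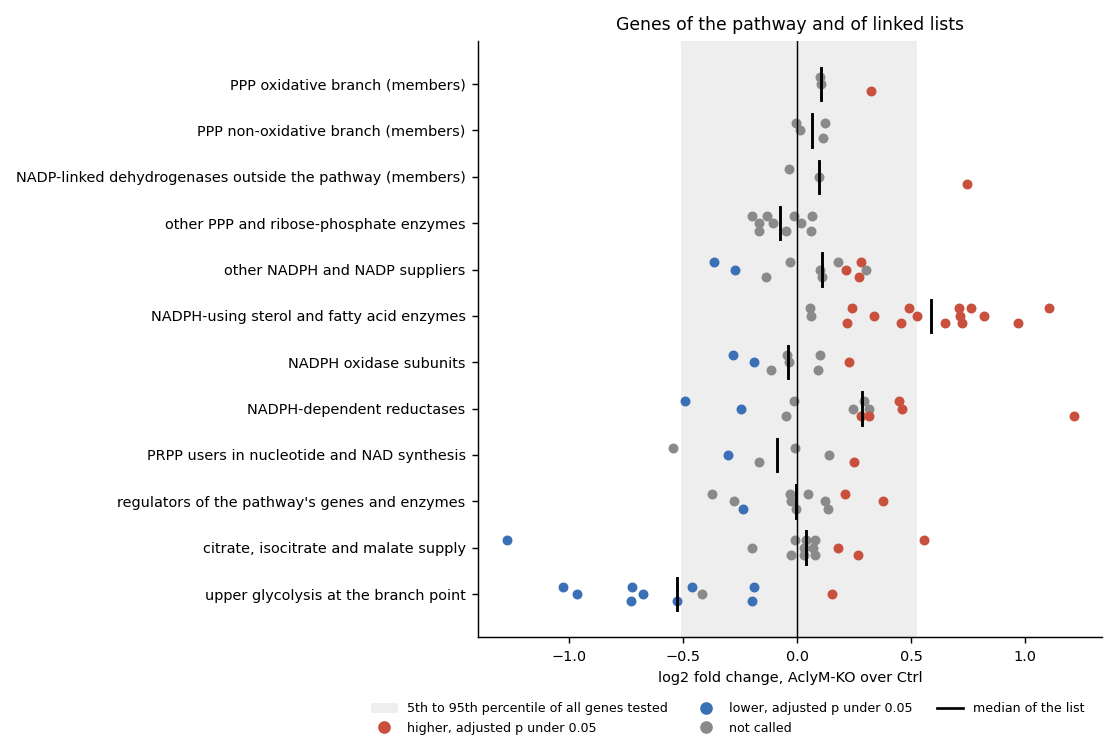
Log2 fold change (AclyM-KO over Ctrl) of each gene tested, by list, red where called higher, blue where called lower and grey where not called, with the list's median as a black line and the 5th to 95th percentile of all genes (-0.51 to 0.52) shaded. The 3 groups of the 10 genes had medians of 0.11, 0.07 and 0.10. The highest median was that of the sterol and fatty acid enzymes (0.59) and the lowest that of upper glycolysis (-0.53), with all other lists between.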

How the data were processed

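The authors made strand-specific poly(A) libraries (KAPA HyperPrep mRNA kit) and aligned reads with STAR 2.5.2b to mm10. CASAVA 1.8.2 is also named in the submitters' processing notes. The deposited values are raw read counts per RefSeq transcript, and the counting program and its strand setting are not given in the sources used here. Reads were counted on every isoform row, so the row with the highest total was kept per gene. Of 35745 rows, 35440 were paired with a gene through the RefSeq table and 188 through GENCODE M21, from which coordinates (mm10) and transcript lengths were taken. The 117 rows left without a gene held 0.370% to 1.38% of the counts of a library and were left out of totals and tests.

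Genes were filtered with filterByExpr, scaled by TMM and tested with edgeR 4.0.16 (R 4.3.3) by its quasi-likelihood test for genotype, with Benjamini-Hochberg adjustment over 12023 genes, after the code had been tested on simulated data. Genes with an adjusted p under 0.05 were called, and 0.58 on the log2 scale was a further limit. CPM used TMM-scaled totals. Levels per length were counts per base scaled to the same sum in each library (TPM scale). Permutation tests over libraries were exact and two-sided. The alternatives were edgeR's RLE scaling, library totals only, DESeq2 1.42.0, limma-voom (limma 3.58.1), other filters, other rows, a replicate term and each library left out. Named were the 10 genes, *Acly*, up to 4 called genes per list with the lowest adjusted p, and a set of isoenzymes and relatives. A few genes that this rule named are not reported here. The genes, lists and tests were chosen with earlier results of these data known, and lists were described by counts and medians without a test. Promoter sequences and start sites are from RefSeq (GRCm38.p6).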

Additional observations from a re-analysis of the deposited data

How the results depend on the processing

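Over 15 alternatives, 140 of 150 values of the 10 genes kept their direction and their side of the threshold. The 7 that turned sign were near 0: *Rpia* (main -0.0055) ran from -0.063 to 0.043 as libraries were left out, *Rpe* (0.015) from -0.042 to 0.052 and to -0.0045 with library totals only, and *Idh2* (-0.034) from -0.076 to 0.0012. The same held for *Nfe2l2* (-0.056 to 0.0073), *Idh3b* (-0.011 to 0.077) and *Idh3g* (-0.0011 to 0.070). The count of the 10 genes called higher was 1 to 3 with 1 library left out, 1 without AclyM-KO replicate 1, and 0 to 1 beyond the fold limit. Genes called lower over the whole table (main 1511) numbered 972 to 1548 with 1 library left out, the 972 without AclyM-KO replicate 2, and 1205 to 1718 in the other alternatives. The cause of the drop was not tested. Of 126 counts of called genes in the linked lists that were compared, 18 moved by more than 1.5 times. Changes were not confined to fits with 1 library left out. With all libraries kept, DESeq2 called 1 reductase lower where edgeR called 2. *Idh3a* was called lower with library totals only and with no filter on low counts. With the replicate block, 1315 genes were higher and 1329 lower, and 2 of the 10 genes were higher. Libraries sharing a number deviated from their group means with correlations of -0.065, 0.050 and -0.031. These values showed no pairing by number, although 3 libraries per group cannot exclude one. The block changed no call among the 10 genes. Per-length levels of *G6pdx* in both groups moved beyond their small spread when the first row of each gene was used. *G6pdx* has only 1 row, so its own counts and length stayed the same. Only the scaling, set by the rows of other genes, differed. Depth limits *Me1*, with 29 to 63 counts per library.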
